A study of Mus musculus with 12 samples.

Results

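The genes described here are 9 ion pumps, channels and cotransporters of the colon epithelium, taken by gene symbol from a table of 21792 genes: Atp12a, Cftr, Slc12a2, Scnn1a, Scnn1b, Scnn1g, Kcne3, Kcnq1 and Kcnn4. All 9 were found. RNA sequencing measured expression in 12 colon tumours from mice of the FvB strain, with 3 libraries for each of 4 genotypes. Double deficient tumours lacked both miR-34a and p53 in the intestinal epithelial cells (IEC), p53 deficient and miR-34a deficient tumours lacked 1 of them there, and wt tumours carried neither deletion. Every mouse of all 4 genotypes, wt included, had received the carcinogen azoxymethane intraperitoneally at 10 mg/kg weekly over 6 weeks, and tumours were collected 16 weeks after the first dose. The deletions are described as restricted to the epithelium, so stromal and immune cells of a tumour should retain both genes. The labels give neither the driver of the deletion, nor the age of the mice, nor whether the 3 libraries of a genotype came from separate animals, and p-values therefore measure the spread between these samples.

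The colon absorbs sodium and water at the surface of the epithelium and secretes chloride from the crypts. Sodium enters surface cells through the epithelial sodium channel ENaC, whose subunits are encoded by Scnn1a, Scnn1b and Scnn1g and which is controlled by aldosterone, mainly in the distal colon. Atp12a encodes the catalytic subunit of the non-gastric, or colonic, proton/potassium pump, which takes up potassium in exchange for protons at the luminal membrane. Secretion begins with Slc12a2, the sodium-potassium-chloride cotransporter NKCC1 that loads cells with chloride from the blood side, and ends with Cftr, the chloride channel of the luminal membrane. Potassium leaves through Kcnq1, whose channel stays conductive when joined by the accessory subunit Kcne3, and through the calcium-activated channel Kcnn4. These exits keep the membrane voltage that drives chloride out.

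The microRNA removed in miR-34a deficient and double deficient tumours is shown because it sets the letters that a direct target would carry. Its mature form lies on GRCm38 chromosome 4, 150068473 to 150068494, plus strand (sequence from RefSeq, GRCm38.p6), and capitals mark the seed, bases 2 to 8:
mmu-miR-34a-5p: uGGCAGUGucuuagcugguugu
The match to this seed, CACTGCC on the transcript strand, was searched in the longest annotated 3' untranslated region of each gene (GENCODE M21, GRCm38). None of the 9 genes held it, against 2978 of 20887 genes with such a region (14.3%). The regions searched were 629 bases long in Atp12a, 2770 in Slc12a2, the longest, and 380 in Kcne3, the shortest. Among genes with a region within 10% of these lengths the match occurred in 8.85%, 27.2% and 5.34%. The absence of these letters says nothing about other kinds of site or about indirect effects.

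Values are normalized scores per gene, rounded by the authors to whole numbers, so library depth and counting error are unknown. Trp53, the gene of p53, checked the p53 labels and says nothing of the miR-34a labels, which were not checked: it lay between 504 and 924 in double deficient and between 401 and 598 in p53 deficient libraries, against 3466 to 5120 in the other 6. The libraries also differed in ways that the genotypes do not name. Averaged over 4 Y-linked genes, log2 levels lay between 0.25 and 0.79 in double deficient libraries and between 3.73 and 6.98 in p53 deficient libraries, and were 0 in miR-34a deficient 1 and wt 1. Between double deficient and p53 deficient tumours, Y-linked level and miR-34a loss therefore cannot be told apart. Averaged over 6 posterior Hox genes, log2 levels were 12.2, 13.95 and 11.7 in double deficient, 15.6, 8.40 and 12.8 in p53 deficient, 14.4 to 15.1 in miR-34a deficient and 13.8 to 14.6 in wt libraries. The low mean of p53 deficient 2 came from Hoxd10, Hoxd11, Hoxd12 and Hoxd13 (22, 94, 81 and 1203), each the lowest of all libraries. Its Hoxb13, 18467, was the highest of all libraries, and its Hoxa13, 367, lay above that of miR-34a deficient 3 (249). The library names of miR-34a deficient 1 and p53 deficient 1 carry a different run code from the others. The 8 epithelial markers (Epcam, Cdh1, Vil1, keratins and Cdx genes) were well above 0 in every library, with mean log2 levels between 14.1 and 15.2. Differences below are log2 differences of group means of value + 1, each ± SE from limma fitted to all 12 libraries (n = 3 per genotype), and p-values are adjusted by Benjamini-Hochberg over the 21322 genes tested. A gene is said to have risen or fallen where the adjusted p is under 0.05.

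Atp12a was the 1 gene of the 9 that changed. In double deficient tumours its values were 1477, 4516 and 1233, in p53 deficient tumours 55233, 119914 and 34757, in miR-34a deficient tumours 23213, 51587 and 7195, and in wt tumours 41489, 53979 and 51628. Every double deficient library lay below all 9 libraries of the other genotypes. The gene lies on GRCm38 chromosome 14, 56365068 to 56388550 (ENSMUSG00000022229), plus strand. The antisense gene Gm10873 (56376902 to 56391562, minus strand) overlaps it, and if counting ignored strand, reads of both cannot be told apart; the same holds for Cftr with Gm15592 and for Kcne3 with Gm34821.

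Against wt, Atp12a fell by 4.59 ± 0.68 in double deficient tumours (limma adjusted p = 0.0156), a 24.1-fold lower level. Against p53 deficient tumours it fell by 4.92 ± 0.68 (adjusted p = 0.00940), which is 30.3-fold lower. Against miR-34a deficient tumours it fell by 3.34 ± 0.68 (adjusted p = 0.0492), close to the threshold. With a direction of variation that is missing from the deposited values added as a covariate, this did not pass (limma adjusted p = 0.0997). Neither single deletion gave a change against wt that passed: the difference was 0.33 in p53 deficient tumours (95% interval -1.17 to 1.83, adjusted p = 0.855) and -1.25 in miR-34a deficient tumours (95% interval -2.75 to 0.25, adjusted p = 0.897). Single libraries moved both values: the first was -0.15 without p53 deficient 2, and the second was -0.49 without miR-34a deficient 3 and -1.91 without miR-34a deficient 2. In order of mean value the genotypes stood as p53 deficient (69968 ± 44450), wt (49032 ± 6637), miR-34a deficient (27332 ± 22481) and double deficient (2409 ± 1829; SD, n = 3 each), and the first 3 overlapped. The place of p53 deficient above wt rests on p53 deficient 2, the highest library. Of all genes tested, 0.802% passed in double deficient against wt, 0.605% against p53 deficient and 0.905% against miR-34a deficient tumours. Of all genes, 0.582%, 0.38% and 0.619% fell in the same order. The comparisons share libraries, so these 3 results are not independent of each other.

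**Figure D1:**
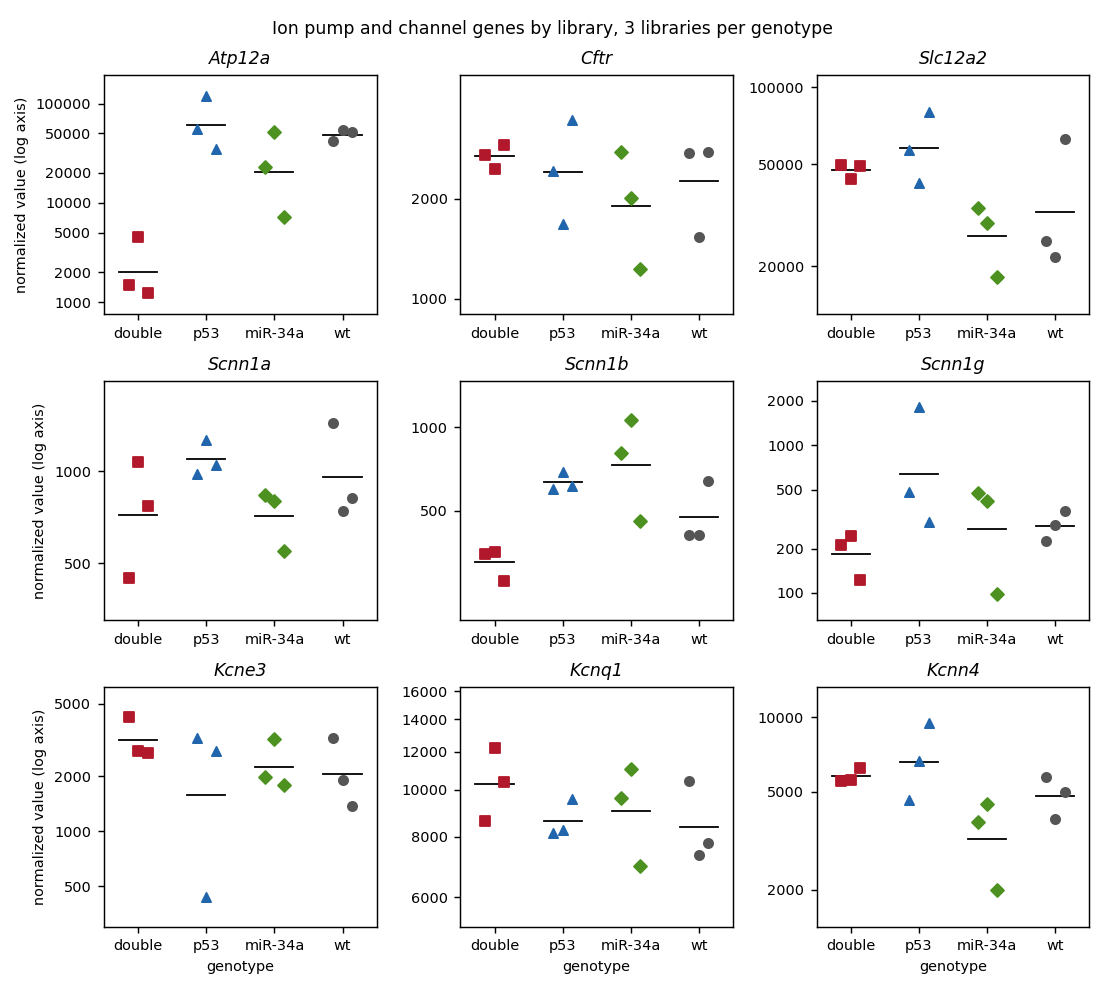
Normalized value of each of the 9 genes in every library (log axis), by genotype with 3 libraries each; the short line is the mean on the log scale. For Atp12a the 3 double deficient libraries lie between 1233 and 4516 and all other libraries between 7195 and 119914.

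The Atp12a difference of double deficient from wt tumours was further below 0 than the sum of both single differences, but this departure did not pass its test. The interaction, that is the effect of miR-34a loss in p53 deficient epithelium minus its effect in wt epithelium, was -3.67 ± 0.97 (limma adjusted p = 0.419, unadjusted p = 0.00277). Pooled over p53 status, miR-34a loss went with a lower Atp12a level (-3.09 ± 0.48, adjusted p = 0.0244; 6 against 6 libraries), with 0.342% of all genes called and 0.197% called lower. This average joins -4.92 in the p53 deficient background with -1.25 in the other, the groups of 6 overlapped, and 12 of 22 alternative analyses passed. It did not pass with the direction missing from the values as a covariate (limma adjusted p = 0.0527). Pooled over miR-34a status, p53 loss gave -1.51 ± 0.48 (adjusted p = 0.0900). Leaving out miR-34a deficient 3, the lowest library outside the double deficient group, brought this to -1.88 with adjusted p = 0.0416.

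Markers of surface colonocytes moved with Atp12a. The 10 markers (among them Aqp8, Car4, Krt20 and Guca2a) had mean log2 levels of 5.17, 7.37 and 5.98 in double deficient, 8.51, 8.26 and 7.95 in p53 deficient, 9.11, 9.25 and 7.95 in miR-34a deficient and 9.87, 9.22 and 9.46 in wt tumours. Their summed value lay between 5007 and 38161 in double deficient and between 49516 and 134465 in wt tumours, and Aqp8 alone among them was at 0, in double deficient 1. The upper ends of both ranges were mostly Car1, at 31179 in double deficient 2 and 120690 in wt 2. In wt 3, Car1 was 32884, close to its value in double deficient 2. Double deficient 2, with the highest marker level and the highest Hox level of its group, also had the highest Atp12a of its group, and miR-34a deficient 3 had the lowest colonocyte marker level and the lowest Atp12a of its group. The p53 deficient tumours did not follow the same line: their marker levels lay below all 3 wt libraries, whereas Atp12a in p53 deficient 1 and 2 lay above all of them. Goblet cell markers were lower too, with 8 markers at mean log2 levels of 9.85 to 12.0 in double deficient and 14.3 to 15.0 in wt tumours. They lay at 12.2 to 13.9 in p53 deficient tumours, also below wt, and at 11.8 to 15.4 in miR-34a deficient tumours. The 6 endothelial markers were higher, at 7.85 to 8.65 in double deficient and 6.18 to 7.12 in wt tumours. They lay at 7.71 to 8.22 in miR-34a deficient tumours, also above wt, and at 6.56 to 7.46 in p53 deficient tumours. The epithelial markers overlapped, at 14.1 to 14.6 in double deficient and 14.4 to 15.2 in wt tumours. In bulk tumour RNA, fewer cells of a type and less RNA per cell cannot be told apart, and the part of these markers and of the Hox level in the Atp12a result was not tested.

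**Figure D2:**
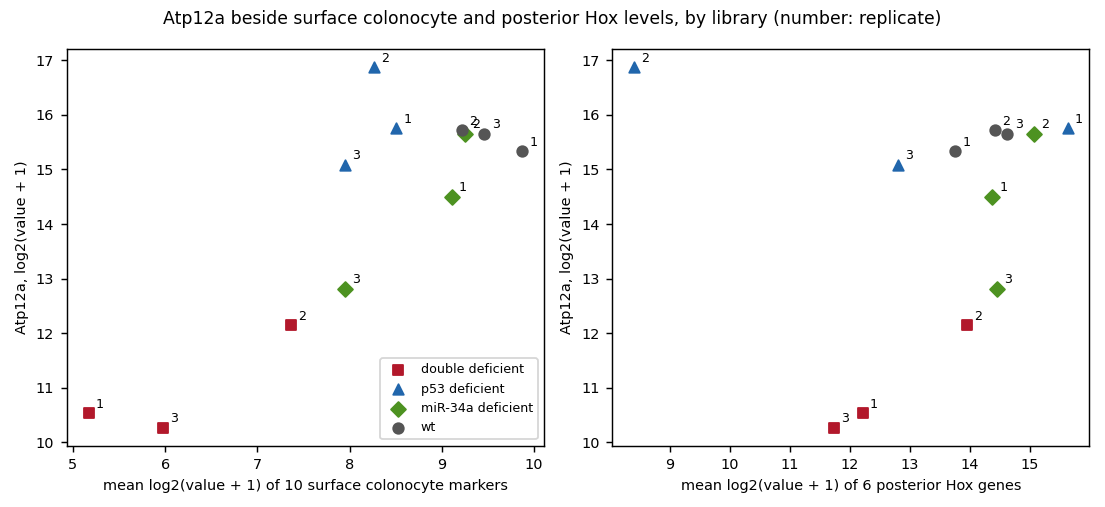
Log2(value + 1) of Atp12a in each of the 12 libraries against the mean log2(value + 1) of 10 surface colonocyte markers (left) and of 6 posterior Hox genes (right); numbers are replicates. Double deficient libraries are lowest for Atp12a and for the colonocyte markers, and p53 deficient 2 joins the highest Atp12a to the lowest mean Hox level, 8.40. Of the Hox genes, Hoxb13 is highest in that same library.

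The size of the Atp12a difference changed less than its p-value, but many of the alternatives could not move it. The filters, the replicate block and a covariate that varies only within genotypes leave a difference of 2 group means as it is. So does leaving out libraries of genotypes that are not compared. Over 22 alternative analyses the difference ranged between -5.17 and -4.24 in double deficient against wt, with 18 passing; it fell short without wt 1 (adjusted p = 0.0661), wt 3 (0.0611), double deficient 1 (0.0649) or double deficient 3 (0.0932). Against p53 deficient tumours it ranged between -5.74 and -4.44, with 19 passing. It was lost there without double deficient 1 (0.0512) or 3 (0.0549), and when Y-linked expression was a covariate, where the difference was -5.74 ± 1.01 (adjusted p = 0.160). Y-linked levels of double deficient and p53 deficient libraries did not overlap. Their part in this comparison cannot be told apart from that of miR-34a loss. The 2 libraries at 0 for Y-linked genes outside the double deficient group had Atp12a values of 23213 (miR-34a deficient 1) and 41489 (wt 1), and neither is p53 deficient. Against miR-34a deficient tumours it ranged between -4.10 and -2.68 and 8 of 22 passed, with adjusted p up to 0.235 (without double deficient 3) and 0.146 without the pair of libraries that carry the other run code. No alternative changed its sign in these 3 comparisons, though many could not have done so.

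**Figure D3:**
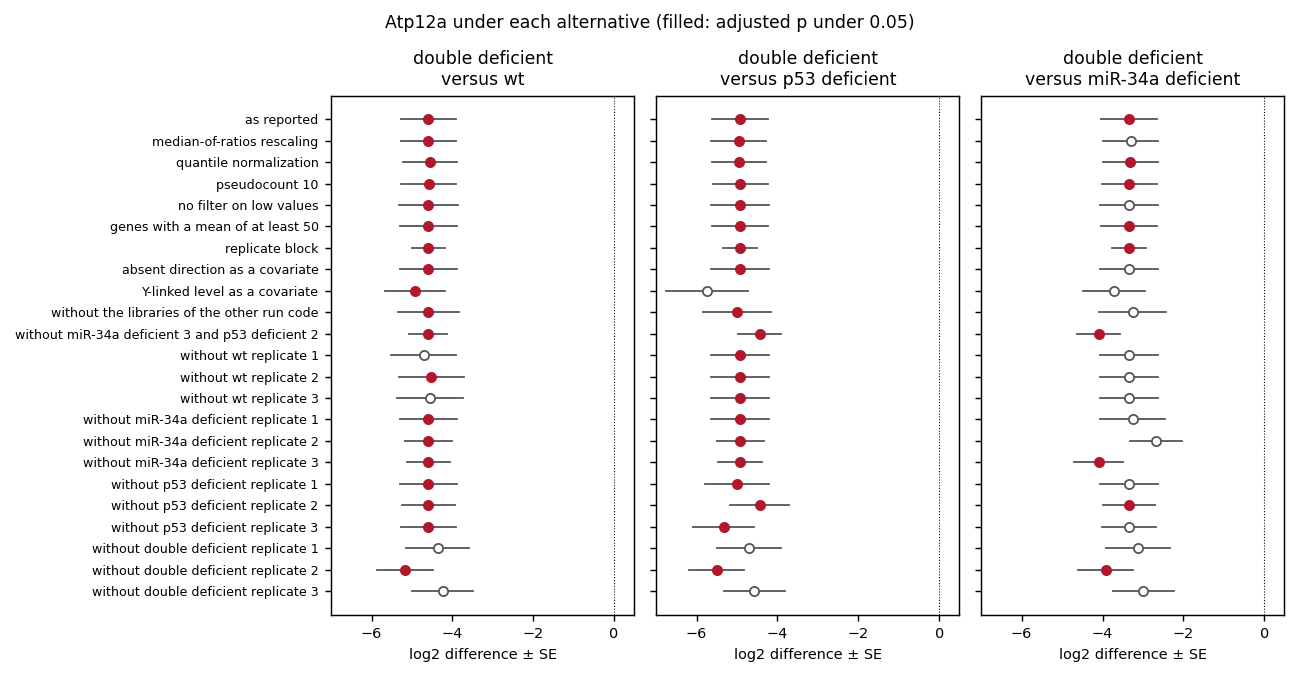
Log2 difference ± SE of Atp12a between double deficient tumours and wt, p53 deficient or miR-34a deficient tumours, as reported and under each of 22 alternatives; filled points have an adjusted p under 0.05. Differences lie between -5.74 and -2.68 in all panels.

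The 3 ENaC genes did not pass in any comparison, and Scnn1b, the beta subunit, came closest. Scnn1b had values of 350, 354 and 280 in double deficient, 600, 688 and 615 in p53 deficient, 807, 1057 and 461 in miR-34a deficient and 410, 410 and 640 in wt tumours. Its double deficient libraries lay below those of each other genotype. The difference was -0.54 ± 0.29 against wt (adjusted p = 0.409), -0.95 ± 0.29 against p53 deficient (adjusted p = 0.159) and -1.17 ± 0.29 against miR-34a deficient tumours (adjusted p = 0.0792). Without miR-34a deficient 3 the last became -1.50 and passed (adjusted p = 0.0336). In miR-34a deficient tumours against wt Scnn1b stood at 0.62 (95% interval -0.01 to 1.25), and the interaction was -1.58 ± 0.41 (limma adjusted p = 0.408, unadjusted p = 0.00244). Scnn1b (chromosome 7, 121865038 to 121918514, plus strand) overlaps Cog7 on the other strand, and where counting ignores strand reads of the 2 genes cannot be told apart.

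Scnn1g, the gamma subunit, lies 96.6 kb upstream of Scnn1b on the same strand. Its values were 210, 243 and 123 in double deficient, 483, 1824 and 303 in p53 deficient, 478, 423 and 98 in miR-34a deficient and 224, 289 and 357 in wt tumours. Double deficient libraries lay below all p53 deficient ones and overlapped the other 2 genotypes. The difference from p53 deficient tumours was -1.80 ± 0.68 (adjusted p = 0.246). The largest single value, 1824, came from p53 deficient 2, the library with the highest Atp12a and the lowest mean Hox level. Scnn1a, the alpha subunit on chromosome 6, had 448, 1074 and 772 in double deficient, 980, 1264 and 1051 in p53 deficient, 838, 799 and 548 in miR-34a deficient and 1434, 743 and 816 in wt tumours. Its groups overlapped in the 5 pairwise comparisons tested, and its difference from wt was -0.41 (95% interval -1.13 to 0.32) in double deficient tumours. All p53 deficient libraries lay above all miR-34a deficient ones, a pair that was not tested. Across the 12 libraries Atp12a had a Pearson r of 0.72 with Scnn1b, 0.71 with Scnn1g and 0.57 with Scnn1a on the log2 scale; after subtracting genotype means the same r were 0.74, 0.84 and 0.50. These correlations are descriptions over libraries that share a normalization.

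Neither chloride secretion gene passed in any of the 8 comparisons. Slc12a2 (chromosome 18, 57878678 to 57946821) had values of 49550, 43706 and 49069 in double deficient, 56691, 42321 and 80200 in p53 deficient, 33615, 29550 and 18152 in miR-34a deficient and 25060, 21662 and 63124 in wt tumours. It was above all miR-34a deficient libraries in every library without p53, while wt 3 alone reached those levels among wt. Of all genes, 27.3% had no overlap between double deficient and miR-34a deficient groups. The lowest Slc12a2 value, 18152, came from miR-34a deficient 3. The difference of double deficient from wt was 0.54 (95% interval -0.28 to 1.37). The difference pooled over p53 loss was 0.84 ± 0.27 (adjusted p = 0.0866), made of 0.83 ± 0.38 in p53 deficient against wt and 0.85 ± 0.38 in double deficient against miR-34a deficient tumours. Without wt 3 the pooled difference was 1.08 and passed (adjusted p = 0.0193). Cftr (chromosome 6, 18170687 to 18322768) had 2700, 2461 and 2899 in double deficient, 2421, 1680 and 3446 in p53 deficient, 2758, 2012 and 1229 in miR-34a deficient and 2740, 1535 and 2754 in wt tumours. Its groups overlapped in every comparison, and the difference of double deficient from wt was 0.24 (95% interval -0.49 to 0.97). Cftr and Slc12a2 had a Pearson r of 0.74 across the 12 libraries and of 0.77 within genotypes.

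Of the potassium channel genes, Kcnq1 varied least. It had values of 8630, 12235 and 10378 in double deficient, 8136, 8279 and 9562 in p53 deficient, 9641, 11048 and 6972 in miR-34a deficient and 10415, 7337 and 7751 in wt tumours. The highest library was 1.75 times the lowest, against 97.3 times for Atp12a. The difference of double deficient from wt was 0.30 (95% interval -0.14 to 0.73), so changes beyond about 0.73 on the log2 scale lie outside that interval. The imprinted antisense RNA Kcnq1ot1 lies within Kcnq1 on the opposite strand (chromosome 7, 143203458 to 143296549); it is not analysed here, and whether counting used strand is not given in the sources used here.

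Kcne3, the subunit that joins Kcnq1, had 4246, 2758 and 2667 in double deficient, 3234, 438 and 2754 in p53 deficient, 1986, 3218 and 1796 in miR-34a deficient and 3261, 1919 and 1377 in wt tumours. The groups overlapped throughout, and the lowest value, 438, came from p53 deficient 2, with no other library below 1377. The difference of double deficient from wt was 0.62 (95% interval -0.76 to 1.999) and from p53 deficient tumours 1.00 (95% interval -0.38 to 2.38). Kcnn4 had 5510, 5582 and 6244 in double deficient, 4617, 6663 and 9478 in p53 deficient, 3786, 4461 and 1998 in miR-34a deficient and 5719, 3876 and 4989 in wt tumours. All 6 libraries without p53 lay above all 3 miR-34a deficient ones. Of all genes, 27.3% had no overlap between double deficient and miR-34a deficient groups. The lowest Kcnn4 value, 1998, came from miR-34a deficient 3, also the lowest library for Cftr, Slc12a2, Scnn1g and Kcnq1. The Kcnn4 difference of double deficient from miR-34a deficient tumours was 0.84 ± 0.31 (adjusted p = 0.185). Pooled over p53 loss the difference was 0.65 ± 0.22 (adjusted p = 0.101). Kcnn4 is also used by lymphocytes. The 9 leukocyte markers had mean log2 levels of 6.43 to 7.62 in double deficient, 5.57 to 6.51 in p53 deficient, 6.45 to 7.08 in miR-34a deficient and 5.94 to 6.74 in wt tumours, and their part was not tested. The T and B cell genes among them had values of at most 14, so these means mostly describe other leukocytes.

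**Figure D4:**
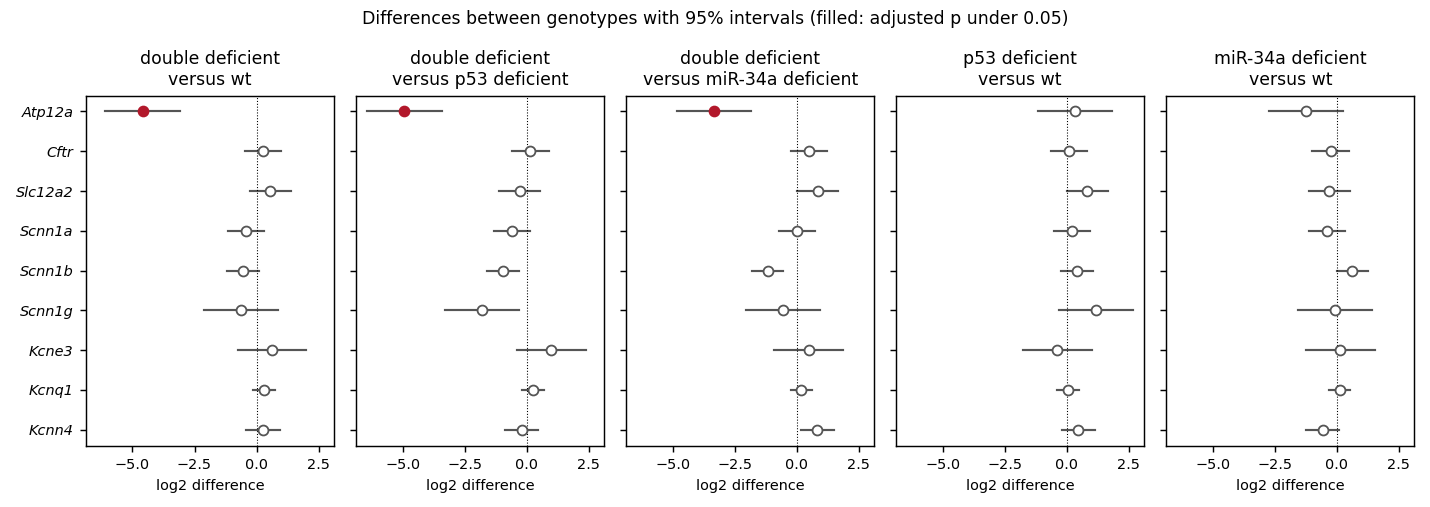
Log2 differences of the 9 genes in 5 comparisons of genotypes, with 95% intervals from limma; filled points have an adjusted p under 0.05. Atp12a is filled in the 3 comparisons of double deficient tumours, at -4.59, -4.92 and -3.34, and no other point is.

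Counted over the set, 1 of 9 genes passed in each comparison of double deficient tumours, always Atp12a, always lower. In miR-34a deficient against wt tumours 0 of 9 passed limma's test and 0 had an unadjusted p under 0.05, where 0.0375% and 6.09% of all genes did. In p53 deficient against wt tumours 0 passed and 1, Slc12a2, had an unadjusted p under 0.05, where 0.0234% and 15.3% of all genes did. For the interaction 0 passed and 2, Atp12a and Scnn1b, had an unadjusted p under 0.05 (0.0234% and 7.89% of all genes). For p53 loss pooled 0 passed and 3 had an unadjusted p under 0.05 (5.05% and 23.8%). In double deficient against wt tumours 1 of 9 had an unadjusted p under 0.05 (15.3% of all genes) and 2 had groups without overlap (19.8%). Against p53 deficient tumours these were 3 (15.1%) and 3 (19.6%), and against miR-34a deficient tumours 4 (18%) and 4 (27.3%). For miR-34a loss pooled 1 of 9 had an unadjusted p under 0.05 (13.7%). In the single deletions against wt no gene of the 9 had groups without overlap, where 10.1% of all genes did for miR-34a and 16.2% for p53. The median of the 9 differences was 0.24 in double deficient against wt, beside 0.02 over all genes.

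Other genes of ion and water transport gave 56 that could be tested in 9 lists. In double deficient against wt tumours 6 fell, 0 rose and 50 did not pass, with a median of -0.35 against 0.02 over all genes, of which 0.582% fell and 0.802% passed. Those that fell were Aqp8, a water channel (-6.54 ± 0.84, adjusted p = 0.00589); Slc26a3, the chloride/bicarbonate exchanger of the surface (-4.95 ± 0.92, adjusted p = 0.0371); Clca1 (-4.33 ± 0.74, adjusted p = 0.0265) and Clca4a (-4.21 ± 0.71, adjusted p = 0.0258); the membrane carbonic anhydrase Car4 (-3.78 ± 0.73, adjusted p = 0.0428); and Guca2a, the peptide guanylin that opens Cftr through cyclic GMP (-3.09 ± 0.57, adjusted p = 0.0350). Clca1, listed in the table under its older symbol Clca3, and Clca4a, listed as Clca6, were entered as anion channels, but Clca1 is a secreted goblet cell protein that is not a channel itself. Aqp8 had 0, 10 and 1 in double deficient against 298, 238 and 249 in wt tumours, and Car4 had 3, 22 and 5 against 207, 90 and 75. With values this low, the sizes of these 2 differences depend on the 1 added before taking logs. Aqp8 alone of the 6 passed under all 22 alternatives. Clca1 passed under 15, Clca4a under 14, Slc26a3 under 13, Guca2a under 12 and Car4 under 10. These 5 were lost without double deficient 3 (adjusted p between 0.133 and 0.189) and, with adjusted p between 0.0542 and 0.0869, after adding as a covariate a direction of variation that is missing from the deposited values and weighs most on that library. With Y-linked expression as a covariate Clca4a (adjusted p = 0.0537) and Guca2a (adjusted p = 0.0755) were lost. Slc26a3, Aqp8, Car4 and Guca2a are also among the surface colonocyte markers, so they are not separate from that list. Slc26a3 had 17, 71 and 13 in double deficient, 438, 1755 and 146 in p53 deficient, 758, 1125 and 160 in miR-34a deficient and 819, 881 and 736 in wt tumours, and its highest value was again in p53 deficient 2.

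**Figure D5:**
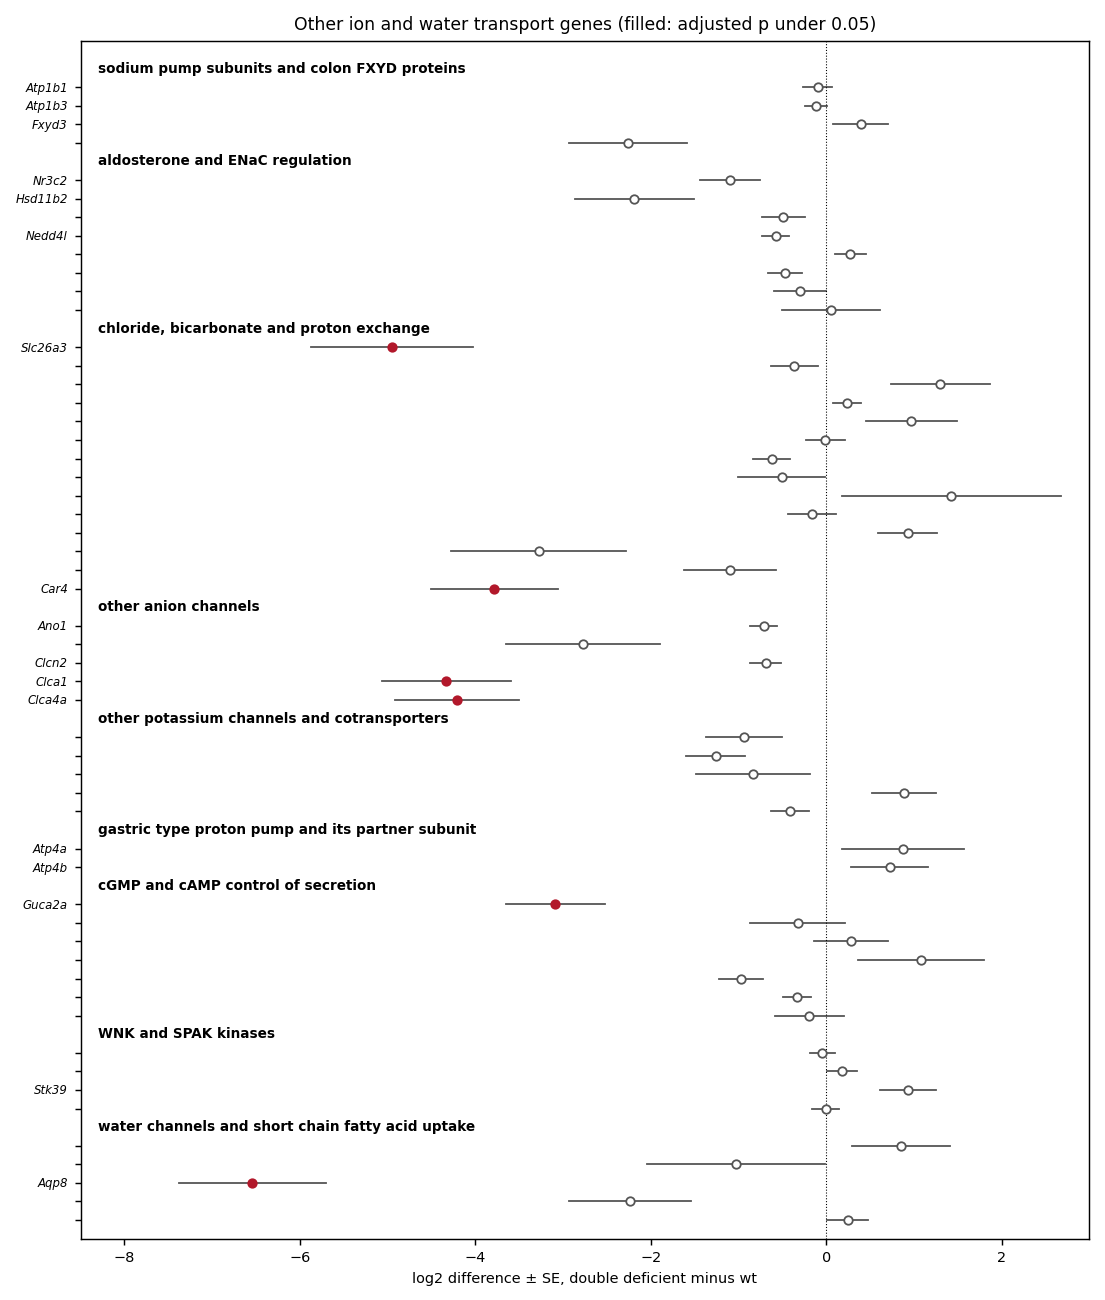
Log2 difference ± SE (double deficient minus wt, limma) of 54 of the 56 other transport genes in 9 lists, with labels for the 17 named in the text; filled points have an adjusted p under 0.05. The 6 filled points lie between -6.54 and -3.09, and the sodium pump subunits Atp1b1 and Atp1b3 lie close to 0.

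The sodium pump sets the gradients that these transporters use. Its subunit genes Atp1b1 and Atp1b3 stood at -0.10 ± 0.17 and -0.11 ± 0.12 in double deficient against wt tumours. In that list of 5 none passed in any of the 8 comparisons, Fxyd3 having the smallest p (1.29 ± 0.32 in double deficient against p53 deficient tumours, adjusted p = 0.1003). Among 8 genes of aldosterone response and ENaC control none passed either, with 6 of 8 below 0 in double deficient against wt tumours (48.3% of all genes were) and a median of -0.48. Nedd4l, the ubiquitin ligase that removes ENaC from the membrane, came closest (-0.67 ± 0.16 against miR-34a deficient tumours, adjusted p = 0.0695). The mineralocorticoid receptor gene Nr3c2 had 296, 734 and 482 in double deficient against 999, 876 and 1180 in wt tumours, without overlap (-1.10 ± 0.34, adjusted p = 0.160). Hsd11b2, the enzyme that keeps glucocorticoids off that receptor, had 37, 284 and 113 in double deficient against 694, 260 and 642 in wt tumours (-2.19 ± 0.68, adjusted p = 0.160), with overlap. Among 6 other potassium channels and cotransporters none passed in any of the 8 comparisons. The gastric pump genes were low: Atp4a lay between 10 and 131 and Atp4b between 0 and 3 in all libraries, and neither passed (smallest p for Atp4b, adjusted p = 0.484).

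With p53 loss pooled, 7 of the 56 genes fell and 1 rose, where 2.84% and 2.21% of all genes did (5.05% in all). The gene that rose was Stk39, the kinase SPAK that phosphorylates and activates NKCC1 (1.02 ± 0.22, adjusted p = 0.0307). Its values were 8367, 5089 and 7037 in double deficient, 3723, 6811 and 7858 in p53 deficient, 3145, 3571 and 1799 in miR-34a deficient and 3346, 3097 and 4135 in wt tumours. Stk39 passed under 11 of 22 alternatives, with adjusted p up to 0.0926, without double deficient 3. It did not pass with the missing direction as a covariate (limma adjusted p = 0.0581). The chloride channel gene Clcn2 fell by 0.69 ± 0.13 (adjusted p = 0.0192), with 2732 to 4051 in the 6 libraries without p53 against 4710 to 6908 in the 6 others, and passed under 20 of 22 alternatives. The other 6 that fell were the 6 listed for double deficient against wt tumours, with adjusted p between 0.0151 and 0.0496. Of 22 alternatives Slc26a3 passed under 6, Guca2a under 11, Car4 under 17 and each of Aqp8, Clca1 and Clca4a under 21; Slc26a3 and Guca2a were lost with either covariate. The calcium-activated chloride channel gene Ano1 fell in double deficient against p53 deficient tumours (-0.89 ± 0.15, adjusted p = 0.0301), with 9183, 10042 and 8502 against 20704, 14185 and 17133. Ano1 passed under 16 of 22 alternatives. It was lost with Y-linked expression (limma adjusted p = 0.160) or the missing direction (0.0747) as a covariate. Aqp8 also fell in that comparison (-4.79 ± 0.84, adjusted p = 0.0327), and Aqp8 and Clca4a fell against miR-34a deficient tumours (-5.31 ± 0.84, adjusted p = 0.0182, and -3.48 ± 0.71, adjusted p = 0.0492). Of 22 alternatives, Aqp8 passed under 9 against p53 deficient and 17 against miR-34a deficient tumours, and Clca4a under 5. Aqp8 against p53 deficient tumours was lost with Y-linked expression (limma adjusted p = 0.170) or the missing direction (0.0733) as a covariate. Clca4a against miR-34a deficient tumours was also lost with either covariate. For Ano1 and Aqp8 against p53 deficient tumours, Y-linked level cannot be told apart from miR-34a loss. None of the 56 passed in either single deletion against wt, for the interaction or for miR-34a loss pooled.

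The genes whose levels followed each of the 9 most closely were sought among 11741 genes (mean value 100 or more), by Pearson r of log2 values over the 12 libraries. For Atp12a these were Mboat1 (r = 0.95), Insl5, a hormone of colonic L cells (r = 0.95), and Slc26a3 (r = 0.94); within genotypes the r were 0.73, 0.95 and 0.95. For Slc12a2 they were Tubgcp3, Smndc1 and Cul3 (0.96, 0.95 and 0.94), and for Kcnn4 Ppif, Ndrg2 and Tstd1 (0.97, 0.95 and 0.94). For Kcne3 they were the mitochondrial fatty acid oxidation enzyme Acaa2 (0.93), Gprc5c (0.92) and Snx17 (0.92), and for Scnn1a Ddah1 (0.92) and Zfand2b (0.91). For Scnn1g they were Golm1, Tln2 and Tsr1 (0.89 each), and for Scnn1b Smim13 (0.88), Ces1c (0.87) and Cdh26 (0.87). For Cftr they were Srsf5 (0.88), Vmn2r59 (0.87) and Gdpd1 (0.87), and for Kcnq1 Nbeal2 (0.88), Cc2d1a (0.82) and Comtd1 (0.81). With 12 libraries and 11741 candidates high r arise readily, and these are descriptions.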

How the data were processed

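The authors deposited a score for each gene: a normalized expression value in whole numbers. Per the submitters' processing notes, reads were placed on mm10. Which aligner, counter, annotation and scaling were used is not given in the sources used here. Upper quartiles lay between 1905 and 1982.25 in all libraries, so the values are not raw counts, and count tests were not used. A direction of variation within genotypes is absent from the values (eighth singular value 0.179 against 32.2 for the seventh), with 47.2% of its squared weight on double deficient 3. It served as a covariate in an alternative. The 8 residual degrees of freedom of the main fit count this empty direction, so its SEs and p-values tend to be too small. With the covariate the SE of the Atp12a differences between genotypes rose from 0.68 to 0.71, and the differences did not change. Values were analysed as log2(value + 1) for the 21322 genes with a mean of at least 1, with limma 3.58.1 in R 4.3.3 (trend, 1 mean per genotype, 8 residual degrees of freedom, 8 comparisons). The fit was tested on simulated data that did not lack this direction. That test therefore cannot show whether the p-values are too small for the deposited values. The 9 genes and all lists were chosen with earlier results of these data known. The genes named are the 9 members, each listed transport gene that passed, otherwise the 1 with the smallest p per list, and the genes most alike to each member; further list genes (Atp1b1, Atp1b3, Nr3c2, Hsd11b2 and Atp4a) were added after their values were seen. Some genes that this rule or the lists include are counted but not reported here by name. Coordinates come from GENCODE M21 (GRCm38, the assembly of mm10). Of 126 list entries 125 were matched to the table, 2 genes through older symbols.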

Additional observations from a re-analysis of the deposited data

How the results depend on the processing

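The alternatives were other scalings, pseudocounts and filters, a replicate block, 2 covariates (Y-linked expression and the direction missing from the values), sets of libraries left out and each library left out in turn; leaving out miR-34a deficient 3 together with p53 deficient 2 was chosen after seeing the data. Same-numbered libraries were not taken as pairs, since the numbers are known from titles only and 4 of 18 such pairs correlated above 0.1. Atp12a itself was highest in replicate 2 of each genotype (53979, 51587, 119914 and 4516 in wt, miR-34a, p53 and double deficient tumours). With the replicate block the SE of its differences between genotypes was 0.42 instead of 0.68. Its limma adjusted p in double against miR-34a deficient tumours was then 0.0134 instead of 0.0492. No called difference of the 9 genes changed sign. Differences that did not pass changed sign in 64 of 1496 refits, 63 of them where the difference was smaller than its SE. Many refits leave a given difference unchanged by design, so these counts do not measure how steady it is. Where calls were lost, the cause was not tested.

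Of the 9 genes, the number called in double deficient against wt tumours was 0 to 1 over the single libraries left out. Against p53 deficient tumours it was 0 to 1 likewise, and 0 with Y-linked expression as a covariate. Against miR-34a deficient tumours it was 0 with median-of-ratios rescaling, no filter, either covariate or without the other run code, 2 without the pair of libraries, and 0 to 2 over single libraries. For p53 loss pooled, Atp12a was the 1 called with the replicate block (adjusted p = 0.0323) and without the pair of libraries, and the range was 0 to 1. For miR-34a loss pooled the number was 0 with either covariate, without the other run code or without the pair, and 0 to 1 over single libraries.

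Over all genes, miR-34a deficient against wt gave 8 calls, 5 with quantile normalization or either covariate, 4 without the pair and 4 to 12 over single libraries. For p53 deficient against wt the 5 calls became 3 with pseudocount 10, 2 with no filter, the replicate block or the missing direction, 1 with the Y-linked covariate or without the pair, 8 without the other run code and 1 to 88 over single libraries. For double deficient against wt the 171 became 102 with the replicate block, 57 with the missing direction, 80 with the Y-linked covariate, 74 without the other run code, 273 without the pair and 29 to 261. Against p53 deficient the 129 became 47 with the missing direction, 7 with the Y-linked covariate, 46 without the pair and 27 to 294. Against miR-34a deficient the 193 became 57 with the missing direction, 73 with the Y-linked covariate, 79 without the other run code and 23 to 246. The interaction had 5, then 3 with the replicate block, 2 with the missing direction, 1 with the Y-linked covariate or without the pair and 2 to 10. For p53 loss pooled 1076 became 321 with the missing direction, 676 with the Y-linked covariate, 508 without the other run code, 499 without the pair and 71 to 1325. For miR-34a loss pooled 73 became 31 with the missing direction, 6 with the Y-linked covariate, 21 without the pair and 17 to 191. The replicate block changed no other count by over 1.5 times and no other call of the 9 genes. Depth is unknown, so no counting limit can be given for low values such as those of Aqp8.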
